A study of Homo sapiens with 6 samples.

Results

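The genes described here form the TRAIL and death receptor pathway in MDA-MB-231 cells, an established human triple-negative breast cancer line with mesenchymal features. They comprise the receptors for TRAIL (TNFRSF10A, TNFRSF10B, TNFRSF10C and TNFRSF10D), the receptors FAS and TNFRSF1A, and the intracellular signalling proteins FADD, CASP8, CFLAR and RIPK1. A gene was included when a probe set on the array carried its symbol and no other, and where several qualified, the brightest of them over the 6 arrays represented it. This gave 8 of the 10 listed genes, out of 18417 genes in all. The probe set that lists TNFRSF10C also lists another gene and was left out, and RIPK1 was not analysed here. Expression was measured on Affymetrix arrays in 3 samples of cells that received the vehicle DMSO and 3 that received YW3-56, a compound known as an inhibitor of the protein arginine deiminases. YW3-56 was given at 10 µM for 8 h, per the labels, which state no separate time for the vehicle. All samples were the same unmodified line in serum-containing medium, so every value refers to a single cell line at a single dose and time.

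Death receptors are cell surface proteins of the tumour necrosis factor receptor family with a cytoplasmic death domain. In FAS and the signalling receptors for TRAIL, this domain recruits the adaptor FADD when ligand binds. FADD in turn gathers caspase-8, which is activated in the complex and starts the caspase cascade, while the CFLAR protein (c-FLIP), a relative of caspase-8, competes for the same adaptor and restrains it. TRAIL binds the signalling receptors DR4 (TNFRSF10A) and DR5 (TNFRSF10B), and it also binds decoy receptors that cannot pass on the death signal. Breast cancer lines of the mesenchymal triple-negative type are known as comparatively sensitive to TRAIL. The arrays report transcripts, and neither protein nor receptor at the cell surface was measured.

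After YW3-56, the transcripts of the TRAIL receptors moved apart. TNFRSF10A was 1.77-fold lower and the decoy receptor TNFRSF10D 1.55-fold lower, while TNFRSF10B was 1.29-fold higher. FADD was 1.26-fold lower, CFLAR rose by 0.32 on the log2 scale, and FAS, TNFRSF1A and CASP8 did not pass the test. With limma and Benjamini-Hochberg adjustment over all genes, 5 of the 8 measured genes were called at an adjusted p under 0.05, 2 higher and 3 lower. Among all genes 21.4% were called, 9.84% higher and 11.5% lower. That balance turned with scaling, from 1812 higher and 2121 lower to 1691 and 1432 with arrays centred, and a repeated quantile normalization gave 2114 and 2025. The 3 treated arrays lay wholly on 1 side of the 3 DMSO arrays for 6 of the 8 genes, against 36.9% of all genes. The median log2 fold change of the 8 genes was -0.17, and that of all genes was -0.05. The count of 5 fell to 3 without DMSO replicate 2, YW3-56 replicate 2 or YW3-56 replicate 3, when FADD and CFLAR were no longer called; the share of all genes called was then 14.4%, 14.4% and 12.8%.

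The arrays of each group resembled each other, with Pearson correlations over genes of at least 0.990 within a group and at most 0.985 between arrays of different groups. The medians of the arrays lay between 7.55 and 7.74 on the log2 scale. The markers of the line were as labelled: 4 of 4 measured mesenchymal markers (VIM, CD44, FN1 and AXL) had means at the 93.7 percentile of gene means or above, and 5 of 5 luminal and epithelial markers (ESR1, PGR, CDH1, ERBB3 and EPCAM) lay below the median gene. Of 6 markers of other cell types, PTPRC, CD3E, PECAM1, ALB and COL3A1 lay below the median and COL1A1 at the 62.3 percentile. Such percentiles are rough, since probe sets differ in their response.

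**Figure D1:**
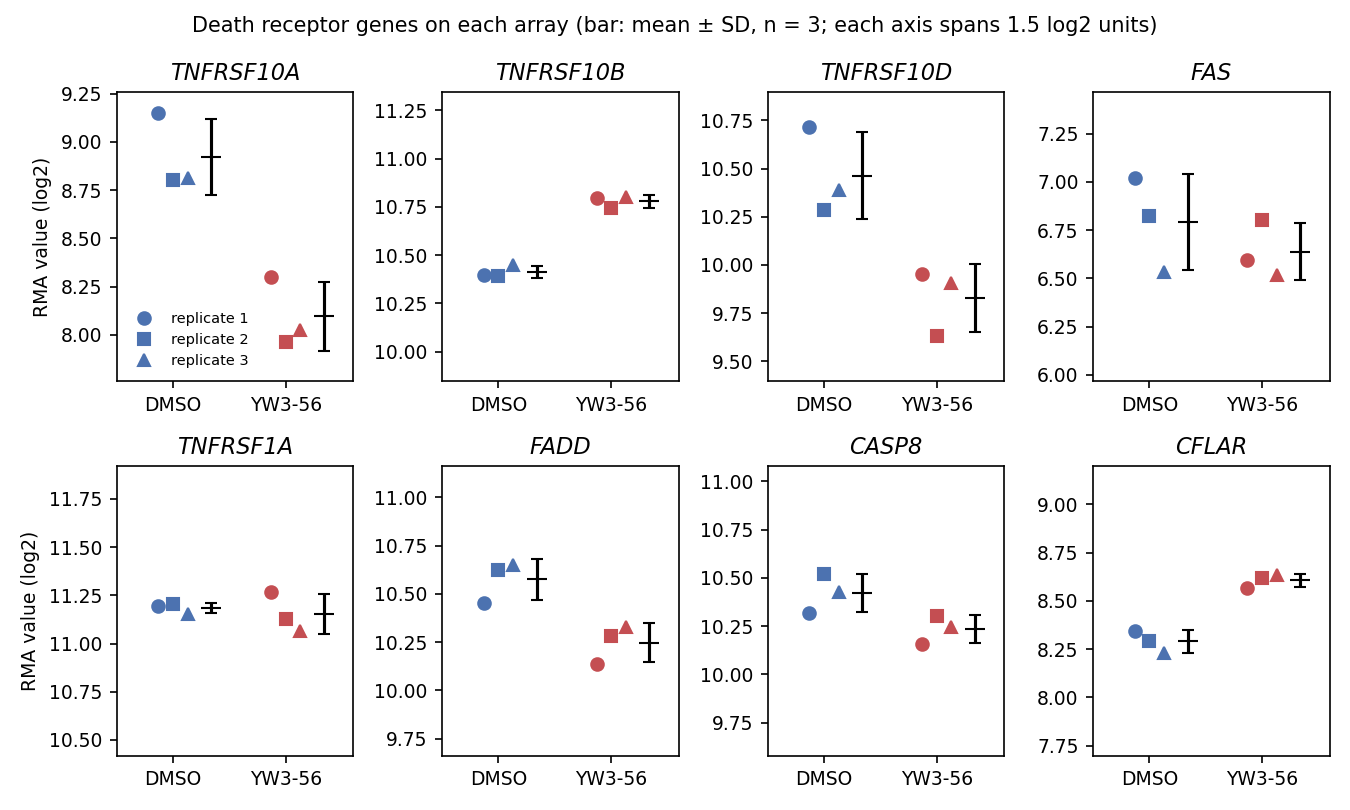
RMA value (log2) of each of the 8 measured genes on each array, with DMSO in blue and YW3-56 in red, a marker shape for each replicate number, and a bar for the mean ± SD of 3 arrays. TNFRSF10A, TNFRSF10D, FADD and CASP8 lie lower on all treated arrays, TNFRSF10B and CFLAR lie higher, and the groups overlap for FAS and TNFRSF1A.

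TNFRSF10A encodes DR4, a TRAIL receptor with a functional death domain. Its DMSO arrays read 9.15, 8.80 and 8.81 on the log2 scale (replicates 1 to 3), and its YW3-56 arrays read 8.30, 7.96 and 8.02. All treated arrays were lower, by at least 0.51 between the nearest arrays of the groups, and replicate 1 was the highest array in both groups. The mean went from 8.92 ± 0.20 (SD, n = 3) to 8.10 ± 0.18, a log2 fold change of -0.83 ± 0.13 (SE; 95% interval -1.11 to -0.54; limma adjusted p = 0.0027). Among all genes, 212 fell further. Arrays of the same replicate number differed by -0.85, -0.84 and -0.79, so the difference varied less than the levels did.

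TNFRSF10B encodes DR5, the other signalling receptor for TRAIL and a known target of the stress transcription factor CHOP (DDIT3). It read 10.40, 10.39 and 10.45 in DMSO and 10.79, 10.74 and 10.80 in YW3-56. The arrays within each group were close together and the groups were 0.29 apart at their nearest. The mean rose from 10.41 ± 0.03 (SD, n = 3) to 10.78 ± 0.03, a log2 fold change of 0.37 ± 0.07 (SE; 95% interval 0.21 to 0.52; limma adjusted p = 0.0066). Among all 18417 genes, 1463 rose further, and 16.4% had a larger change in either direction.

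TNFRSF10D encodes a decoy receptor for TRAIL with a truncated death domain. Its DMSO values were 10.72, 10.29 and 10.39, and its YW3-56 values were 9.95, 9.63 and 9.91. Again the groups did not overlap, and replicate 1 was the highest array in both. The log2 fold change was -0.63 ± 0.13 (SE; limma adjusted p = 0.0108), from 10.46 ± 0.22 (SD, n = 3) to 9.83 ± 0.17. Without DMSO replicate 1 it was -0.51 and stayed called (adjusted p = 0.0094), and an ordinary linear model per gene, which borrows no variance from other genes, did not call it (adjusted p = 0.0855). TNFRSF10A, TNFRSF10B and TNFRSF10D resemble each other in sequence, and any probe that binds more than 1 of them cannot be separated here.

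The unequal change of DR4 and DR5 was also taken within arrays, where any factor common to an array cancels. The log2 difference TNFRSF10B minus TNFRSF10A was 1.49 ± 0.21 (SD, n = 3) in DMSO and 2.68 ± 0.16 in YW3-56. The offset itself has no meaning because the probe sets differ, but its change of 1.19 corresponds to a 2.28-fold shift of DR5 transcript relative to DR4 transcript. The lowest treated array, at 2.50, was above the highest DMSO array, at 1.64. The exact two-sided permutation test gave p = 0.1, the smallest that 3 arrays against 3 allow. Because the groups of both genes lay wholly apart, in opposite directions, that p was fixed beforehand. It adds no evidence beyond the calls of the genes themselves.

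These receptor genes lie next to each other on chromosome 8, in the order TNFRSF10B, TNFRSF10C, TNFRSF10D and TNFRSF10A among protein-coding genes of the RefSeq table (assembly GRCh38.p14). The gene that rose and those that fell are thus neighbours within a single cluster. On the TNFRSF10A side, the next gene CHMP7, which encodes a protein of the ESCRT membrane remodelling machinery, fell by 0.40 ± 0.08 (SE; limma adjusted p = 0.0106), and R3HCC1 beyond it had a log2 fold change of -0.00. On the TNFRSF10B side, RHOBTB2 had -0.05 and PEBP4 -0.03. These 4 neighbours were chosen by position after the receptor values were known.

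FAS encodes the receptor for FAS ligand. It read 7.02, 6.83 and 6.53 in DMSO and 6.59, 6.80 and 6.52 in YW3-56. The arrays of each group were spread over a wider range than the group means were apart, and the groups overlapped. The log2 fold change was -0.15 ± 0.13 (SE; 95% interval -0.46 to 0.15; limma adjusted p = 0.51), so a fall to the size of FADD's is within the interval. The probe set was dim, with a mean at the 21.4 percentile of gene means.

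TNFRSF1A encodes TNFR1, the main receptor for tumour necrosis factor, which signals to NF-kB and, through a later complex, to cell death. Its values were 11.20, 11.20 and 11.15 in DMSO and 11.27, 11.13 and 11.06 in YW3-56. The groups overlapped, with the highest and the lowest array both treated. The log2 fold change was -0.03 ± 0.08 (SE; 95% interval -0.21 to 0.15; limma adjusted p = 0.85), an interval that does not reach the change of TNFRSF10A, TNFRSF10B or TNFRSF10D. Without YW3-56 replicate 3 its sign turned, to 0.01. The differences between TNFRSF1A and the TRAIL receptors were not tested as such.

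**Figure D2:**
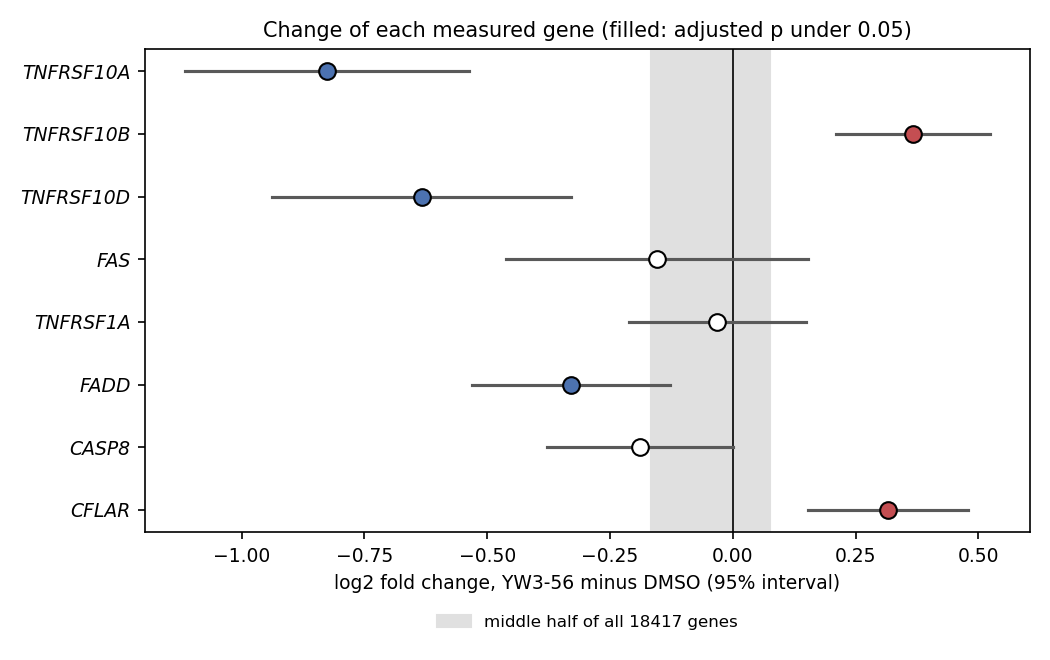
Log2 fold change (YW3-56 minus DMSO) of the 8 measured genes with 95% intervals from limma, filled where the adjusted p was under 0.05; the grey band spans the lower to the upper quartile of all genes, from -0.17 to 0.08. TNFRSF10A and TNFRSF10D lie farthest left at -0.83 and -0.63, and TNFRSF10B and CFLAR lie right of the band at 0.37 and 0.32.

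In the signalling complex, FADD was called lower and CFLAR higher, but each call was lost under some alternatives. The difference between their changes was not tested. FADD, which bridges receptor and caspase through its death and death effector domains, read 10.46, 10.62 and 10.65 in DMSO and 10.13, 10.28 and 10.33 in YW3-56. The groups were 0.13 apart at their nearest, and replicate 1 was the lowest array in both. The mean fell from 10.58 ± 0.11 (SD, n = 3) to 10.25 ± 0.10, by 0.33 ± 0.09 (SE; limma adjusted p = 0.0304). This call was narrow: it was lost when DMSO replicate 2 or 3 was omitted (adjusted p = 0.1122 and 0.0835), when any treated array was omitted (0.1026, 0.0785 and 0.0635 for YW3-56 replicates 1 to 3), after a second quantile normalization (0.0538) and in the ordinary linear model (0.0829). Arrays of the same number differed by -0.32, -0.35 and -0.32.

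CASP8 encodes the initiator caspase of the complex. It read 10.32, 10.52 and 10.43 in DMSO and 10.16, 10.30 and 10.25 in YW3-56. All treated arrays were below all DMSO arrays, but by only 0.02 at the nearest. The log2 fold change of -0.19 ± 0.08 (SE; 95% interval -0.38 to 0.00) did not pass the test (limma adjusted p = 0.16), and array weights called it (-0.24, adjusted p = 0.0209). As for FADD, replicate 1 was the lowest array of each group.

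CFLAR, the inhibitor that competes with caspase-8, had 8.35, 8.29 and 8.23 in DMSO and 8.57, 8.62 and 8.63 in YW3-56. The treated arrays were all higher, by at least 0.22. Between arrays of the same number the rise was 0.22, 0.32 and 0.41, so here the difference varied more than the levels did. The mean rose from 8.29 ± 0.06 (SD, n = 3) to 8.61 ± 0.04, by 0.32 ± 0.07 (SE; limma adjusted p = 0.0150). A second CFLAR probe set, 8047401, read 7.94, 7.82 and 7.74 in DMSO and 8.15, 7.80 and 7.94 in YW3-56, and there the groups overlapped. Its log2 fold change of 0.13 ± 0.11 (SE) did not pass (adjusted p = 0.49), and the mean of both probe sets did not pass either (0.22, adjusted p = 0.0868). The annotation lists different transcripts for the 2 probe sets. The CFLAR call was also lost without DMSO replicate 2 (0.0569), YW3-56 replicate 2 (0.0615) or YW3-56 replicate 3 (0.0722).

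CFLAR, CASP10 and CASP8 lie side by side on chromosome 2. Of these relatives, CFLAR rose, CASP10 had a log2 fold change of 0.19 ± 0.09 (SE; adjusted p = 0.19) and CASP8 had the value given above. The promoters of CFLAR and FADD, the called genes outside the receptor cluster, are shown to let their sequence be set beside their values. Neither gene was called under every alternative. Each run holds the 250 bases before the gene start from RefSeq (GRCh38.p14, plus strand), chr2:201118466-201118715 for CFLAR and chr11:70203046-70203295 for FADD. Capitals mark the matches to the motifs searched.
CFLAR: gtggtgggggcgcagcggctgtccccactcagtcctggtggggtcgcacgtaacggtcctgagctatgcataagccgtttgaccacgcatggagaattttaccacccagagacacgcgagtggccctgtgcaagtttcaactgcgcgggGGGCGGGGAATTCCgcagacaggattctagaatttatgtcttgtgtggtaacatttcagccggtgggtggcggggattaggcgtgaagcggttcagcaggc
FADD: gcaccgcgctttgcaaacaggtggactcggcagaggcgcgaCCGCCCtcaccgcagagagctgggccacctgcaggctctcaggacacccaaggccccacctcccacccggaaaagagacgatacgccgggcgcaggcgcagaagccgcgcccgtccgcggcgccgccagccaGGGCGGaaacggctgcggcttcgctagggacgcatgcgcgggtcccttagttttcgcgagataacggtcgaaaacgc

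Both promoters are rich in G and C, at 58.8% for CFLAR and 68.8% for FADD. CFLAR holds a GC box (GGGCGG, the letters bound by SP1) at -101 from the gene start, overlapped by a match to the NF-kB consensus at -97. FADD holds GC boxes at -209 and -77. A GC box was present in 42.6% of 35116 promoters of that length and the NF-kB consensus in 9.96%, with both strands searched. Neither promoter held the other motifs searched, which were TGATGNAAN for ATF4 with a C/EBP partner, TGACGT for CREB and ATF proteins, TGANTCA for AP-1, TTGCNNAA for C/EBP and CACGTG for MYC. These matches describe the sequence and say nothing of what binds there.

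Beyond these genes, 62 others of the pathway were listed by role, and 56 were measured. Of these, 17 were called, 11 higher and 6 lower, which is 30.4% beside the 21.4% of all genes. Their median log2 fold change was -0.03. Several entries were known to change when the lists were drawn up, so the counts describe the pathway and are not independent evidence of a direction. The count was 11 without YW3-56 replicate 2 and also 11 in the ordinary linear model, which did not call TNFRSF21, TNFRSF11B, BIRC2, TNFAIP3, OTULIN, MARCHF8 or ATF4 (adjusted p from 0.0565 to 0.1748) and called CUL3 in addition (0.0341).

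None of the 5 measured ligand genes was called by limma, 0 had an unadjusted p under 0.05, and the ordinary linear model called 0. TNFSF10, which encodes TRAIL itself, read 5.70, 5.38 and 5.34 in DMSO and 5.21, 5.65 and 5.54 in YW3-56, with overlapping groups and a log2 fold change of -0.01 ± 0.14 (SE; adjusted p = 0.98). FASLG, the ligand of FAS, read 6.45, 6.74 and 6.72 in DMSO and 6.71, 6.45 and 6.59 in YW3-56 (-0.05 ± 0.11 SE; adjusted p = 0.80). The lowest log2 fold change was that of TNF, at -0.16, and TNF was called with array weights (-0.23, adjusted p = 0.0426) and without DMSO replicate 1 (-0.27, adjusted p = 0.0454). The probe sets of TNFSF10 and FASLG were dim, with means in the lowest 20% of genes.

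Among 6 measured receptors outside the listed genes, 2 fell, which is 33.3% beside the 11.5% of all genes that were called lower; the arrays of the groups did not overlap for 33.3% of them, beside 36.9% of all genes. TNFRSF21 encodes DR6, a death domain receptor. It read 10.97, 10.54 and 10.33 in DMSO and 9.86, 9.35 and 9.42 in YW3-56, and the groups did not overlap. Its log2 fold change of -1.07 ± 0.18 (SE; adjusted p = 0.0046) was larger than that of any of the 8 genes above. TNFRSF11B encodes osteoprotegerin, a secreted decoy that binds TRAIL and RANK ligand, and it read 6.82, 6.71 and 7.07 in DMSO and 6.46, 6.41 and 6.41 in YW3-56. It fell by 0.44 ± 0.10 (SE; adjusted p = 0.0158), a call lost without YW3-56 replicate 2 (0.0582) or 3 (0.0669). TNFRSF25, TNFRSF1B, NGFR and EDAR did not pass. The probe set of TNFRSF11B was dim, with a mean at the edge of the lowest 20% of genes. TNFRSF10D, the other measured decoy receptor for TRAIL, was also called lower, as were 11.5% of all genes. The ordinary linear model called neither decoy (adjusted p = 0.0855 for TNFRSF10D and 0.0766 for TNFRSF11B), nor did it call TNFRSF21 (0.0652). These decoys were set side by side with their values known, and the decoy TNFRSF10C was not measured.

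In the receptor complexes, 2 of 17 measured genes rose and 3 fell. That is 29.4% called, beside 21.4% of all genes. RBCK1 (HOIL-1), a subunit of the ligase that builds linear ubiquitin chains, read 10.27, 10.30 and 10.42 in DMSO and 10.83, 10.81 and 10.85 in YW3-56. It rose by 0.50 ± 0.07 (SE; adjusted p = 0.0022), with little spread among the treated arrays. OTULIN, the enzyme that removes such chains, rose by 0.44 ± 0.10 (SE; adjusted p = 0.0180). The remaining subunits of the ligase, RNF31 and SHARPIN, had 0.04 and 0.05, and CYLD, which also removes ubiquitin chains, had 0.31 (adjusted p = 0.13). OTULIN was no longer called without DMSO replicate 2 (0.0759) or 3 (0.0526) or without YW3-56 replicate 1 (0.0650) or 3 (0.0678).

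The 3 genes of this list that fell were MLKL, TNFAIP3 and BIRC2. MLKL, the membrane-disrupting effector of necroptosis, read 9.85, 9.90 and 9.82 in DMSO and 9.41, 9.32 and 9.53 in YW3-56. It fell by 0.44 ± 0.08 (SE; adjusted p = 0.0061), with groups clearly apart. TNFAIP3 (A20), an NF-kB-induced ubiquitin editor, had a log2 fold change of -0.47 ± 0.12 (SE; adjusted p = 0.0237), and BIRC2 (cIAP1), a ubiquitin ligase of the TNFR1 complex, had -0.37 ± 0.11 (SE; adjusted p = 0.0396). Both calls were narrow. TNFAIP3 was lost without DMSO replicate 2 (0.0580) or YW3-56 replicates 1, 2 or 3 (0.0761, 0.0826 and 0.0580), and after centring of each array (0.0577). BIRC2 was lost without DMSO replicate 1 or 3 (0.0518 and 0.0650) or YW3-56 replicates 1, 2 or 3 (0.1216, 0.1216 and 0.0720), after centring (0.0990), and with array weights, where its change was -0.24 (0.0520). TRADD, the adaptor of TNFR1, and RIPK3, the kinase that acts on MLKL, did not pass, each with a log2 fold change of -0.13.

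**Figure D3:**
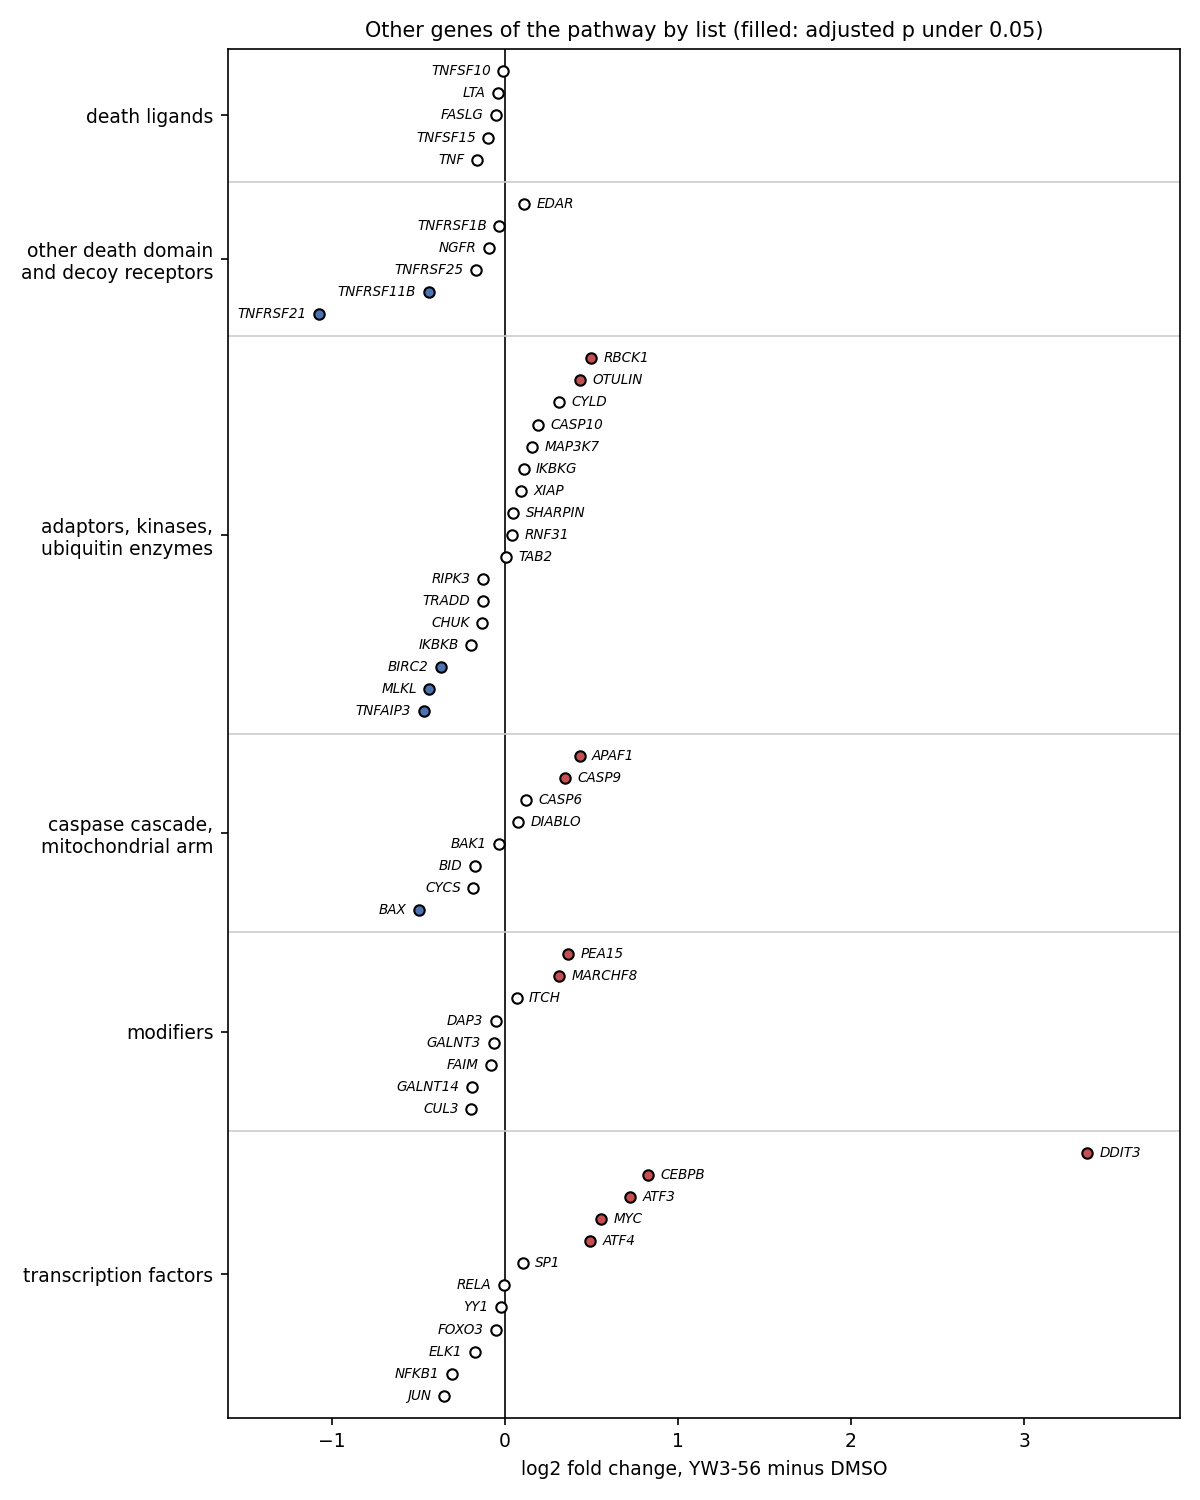
Log2 fold change (YW3-56 minus DMSO) of the 56 measured genes of the wider pathway, grouped by role and ordered within each group, filled where the limma adjusted p was under 0.05. The ligands lie between -0.16 and -0.01, TNFRSF21 lies farthest left at -1.07, and DDIT3 lies farthest right at 3.36.

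Downstream of the receptors, 2 of 8 measured genes rose and 1 fell, which is 37.5% called beside 21.4% of all genes. APAF1, the scaffold of the apoptosome, read 8.36, 8.47 and 8.31 in DMSO and 8.71, 8.80 and 8.93 in YW3-56. It rose by 0.43 ± 0.09 (SE; adjusted p = 0.0088). CASP9, the caspase that the scaffold activates, rose by 0.35 ± 0.08 (SE; adjusted p = 0.0142), a call lost without DMSO replicate 2 (0.0580) or YW3-56 replicate 2 (0.0655). BAX, which opens the mitochondrial outer membrane, read 11.31, 11.19 and 11.34 in DMSO and 10.86, 10.71 and 10.79 in YW3-56 (-0.49 ± 0.08 SE; adjusted p = 0.0033). BID, the protein through which caspase-8 engages mitochondria, had -0.17 ± 0.11 (SE; adjusted p = 0.33).

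Of 8 genes that modify receptors or the complex, 2 rose, a share of 25% called that is near the 21.4% of all genes. PEA15, a death effector domain protein that can bind FADD and caspase-8, read 12.80, 12.68 and 12.80 in DMSO and 13.13, 13.07 and 13.15 in YW3-56. It rose by 0.36 ± 0.07 (SE; adjusted p = 0.0092), close to the rise of CFLAR, although the difference of these changes was not tested. MARCHF8, a membrane ubiquitin ligase known to lower TRAIL receptors at the surface, rose by 0.32 ± 0.08 (SE; adjusted p = 0.0254). Its call was lost without DMSO replicate 2 (0.0597) or 3 (0.0554) or YW3-56 replicate 1 (0.0872) or 2 (0.0765). GALNT14 and GALNT3, enzymes of O-glycosylation, had -0.19 and -0.07 and did not pass.

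Among transcription factors reported upstream of TNFRSF10B or CFLAR, 5 of 12 measured genes were called higher, or 41.7% beside 9.84% of all genes. This list was drawn up with earlier results of these data known, so its share is not independent evidence of a direction. Of the 5, ATF4 has a probe set that fell. DDIT3 (CHOP) read 8.37, 8.69 and 8.73 in DMSO and 11.81, 11.98 and 12.10 in YW3-56, a log2 fold change of 3.36 ± 0.12 (SE; adjusted p = 5.7e-06). The rise of TNFRSF10B was 0.37 on the same scale, and a link between these changes was not tested. CEBPB rose by 0.83 ± 0.08, ATF3 by 0.72 ± 0.10 and MYC by 0.55 ± 0.08 (SE; adjusted p = 5.2e-04, 0.0018 and 0.0020). ATF4 was called in its brighter probe set (0.49 ± 0.14 SE, adjusted p = 0.0418), while its other probe set, 8073148, fell (-0.54 ± 0.10 SE, adjusted p = 0.0061), and its call was lost without DMSO replicate 2 (0.0814) or any of the YW3-56 replicates 1, 2 and 3 (0.1040, 0.0884 and 0.1421). The NF-kB subunits NFKB1 and RELA had -0.31 (adjusted p = 0.0567) and -0.00 (0.98). JUN had -0.35 and did not pass either (limma adjusted p = 0.0708).

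Over the 6 arrays, the genes whose log2 values followed TNFRSF10A most closely were NAA15 (Pearson r = 0.998), ZBTB9 (0.998) and RPGRIP1L (0.998). For TNFRSF10B they were CCDC117 (0.999), BLTP3A (0.999) and SAMTOR (0.999). With 2 groups of 3, such values mostly reflect the difference between the groups, and they are given as a description over 6 arrays only. NAA15 had nearly the same log2 fold change as TNFRSF10A, at -0.82 ± 0.11 (SE), whereas CCDC117 rose further than TNFRSF10B, by 0.79 ± 0.08.

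**Figure D4:**
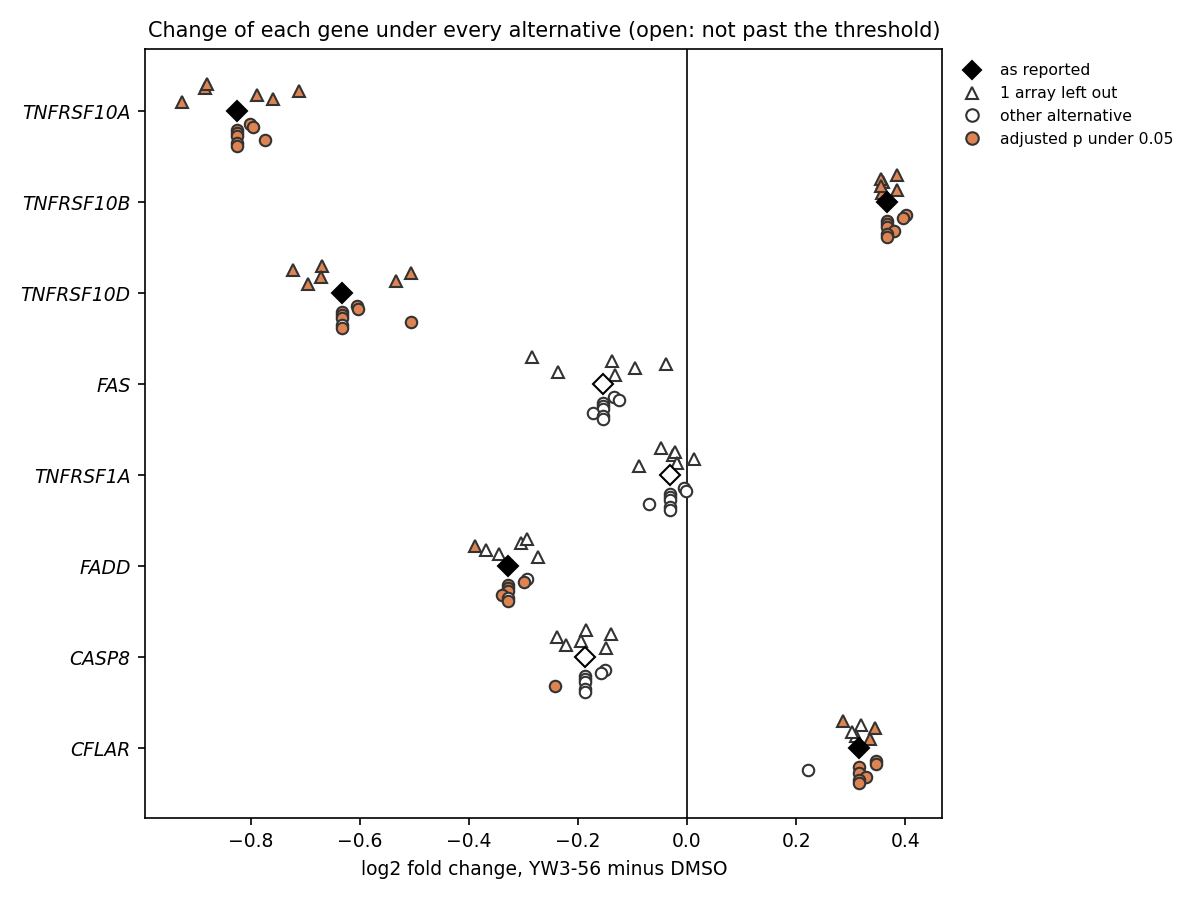
Log2 fold change of each of the 8 genes as reported (diamond), with 1 array left out (triangles) and under the other alternatives (circles), filled where the adjusted p was under 0.05. TNFRSF10A stayed between -0.93 and -0.71 and TNFRSF10B between 0.36 and 0.40. FADD and CFLAR moved across the threshold under several alternatives, TNFRSF10D only in the ordinary linear model and CASP8 only with array weights.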

How the data were processed

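The authors deposited log2 values of 33297 probe sets for 6 arrays, made with RMA and affy per the submitters' processing notes; their versions were not given in the sources used here. This method aims to equalise the distributions of arrays, so a shift of all transcripts may not show. The deposited arrays were still not equal, with medians from 7.55 to 7.74 on the log2 scale. Names came from the array's platform annotation, which can be old: 19460 had 1 symbol, 1754 several and 12083 none. Groups came from the treatment label. The groups were compared in limma 3.58.1 under R 4.3.3 (lmFit and eBayes, group only, no filter, two-sided, Benjamini-Hochberg adjustment over 18417 genes, called at an adjusted p under 0.05), after the code was tested on simulated data. The number of arrays limits the precision. The labels call the replicates biological and do not say how they were kept apart, so p-values speak only of the spread between these arrays. In limma, part of that spread is borrowed from other genes.

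Deviations from group means correlated over genes at 0.539, 0.370 and 0.102 between arrays numbered 1, 2 and 3. All were above 0.1, the last narrowly, so the numbers were treated as pairs in an alternative. These values do not establish that the arrays were paired. YW3-56 replicate 2 correlated slightly better with DMSO replicate 3 (0.416). The limma fit reported for each gene used the group only and left this pairing out, and the replicate block was run as an alternative. The genes, lists, motifs and rule for named genes were chosen with earlier results of these data known. The rule named the listed genes, TNFSF10 and FASLG, the called genes of lists with 5 or fewer calls, and the 3 genes closest in pattern to TNFRSF10A and TNFRSF10B; uncalled genes were added to complete a list. The alternatives comprised centring of arrays, a second quantile normalization, a filter below the 20th percentile, the mean of probe sets, all probe sets, a trended and robust prior, array weights (gene-by-gene algorithm, since the default did not converge), an ordinary linear model per gene without variance shared between genes, the replicate block and each array left out.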

Additional observations from a re-analysis of the deposited data

How the results depend on the processing

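Under 14 alternatives, TNFRSF10A and TNFRSF10B kept their direction and their call in all 14, TNFRSF10D in 13, CFLAR in 10 and FADD in 7. FAS was called in 0 of 14, CASP8 in 1 and TNFRSF1A in 0; the sign of TNFRSF1A turned without YW3-56 replicate 3 (0.013), within a range of -0.089 to 0.013 with 1 array left out. The number of the 8 genes called was 3 in the ordinary linear model per gene and 3 to 5 with 1 array left out. The number of wider pathway genes called was 11 in that model and 11 to 18 with 1 array left out, and ATF4 turned to -0.023 in the mean of its probe sets. Over all genes, array weights called 6079 and left-out arrays gave 2364 to 4689, beside 3933. The change of TNFRSF10B minus TNFRSF10A was 1.07 to 1.29 with 1 array left out. With the replicate block, 4776 genes were called, the same 5 of 8 genes were called, and 19 wider pathway genes were called; it changed no call of the 8 genes, and the within-pair exact p of the receptor difference was 0.25, the smallest that 3 pairs allow. That p was likewise fixed beforehand, because the groups of both receptor genes lay wholly apart. The causes of the changes between alternatives were not tested. Dim probe sets, such as those of FAS and the ligands, limit what could be seen.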
